A study of Homo sapiens with 6 samples.

Results

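The alpha and beta tubulin isotypes are the 10 genes TUBA1A, TUBA1B, TUBA1C, TUBA4A, TUBB, TUBB2A, TUBB2B, TUBB3, TUBB4B and TUBB6, 4 of alpha-tubulin and 6 of beta-tubulin. They were chosen by gene symbol, and all 10 were found, each once, among the 21619 entries of the count table. All 10 also passed the filter on low counts, which left 14322 entries for testing. PolyA RNA had been sequenced from HT1080, a human fibrosarcoma cell line, in 2 groups of 3 libraries. PGK1_OE cells carried stable overexpression of PGK1 (phosphoglycerate kinase 1, an enzyme of glycolysis), and PGK1_WT cells were labelled wild type. Neither the vector and its promoter nor the number of clones behind PGK1_OE is stated, and PGK1_WT may be parental or carry an empty vector. No label says that the libraries of a group came from separate cultures, so the p-values speak only to the spread among 3 libraries, part or all of which may be technical.

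Microtubules are hollow polymers of alpha- and beta-tubulin heterodimers that form the mitotic spindle, carry intracellular transport and shape the cell. Each subunit is made from several genes, the isotypes, whose proteins are alike in the body of the molecule and differ most in an acidic carboxy-terminal tail. That tail is where glutamate chains and, in alpha-tubulin, the removal and return of the last tyrosine are placed. Cells also hold tubulin mRNA in check by autoregulation: when free dimers are plentiful, the factor TTC5 reads the first residues of the nascent tubulin chain on the ribosome, and SCAPER brings the CCR4-NOT deadenylase to the mRNA. TUBA1B, TUBA1C, TUBB, TUBB4B and TUBB6 are expressed in many tissues, whereas TUBB3 and TUBA1A are best known from neurons.

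The coding sequences are shown at both ends, because these ends carry the autoregulation signal and the isotype-specific tail. The first 12 coding bases of 1 principal GENCODE 29 transcript per gene, with the codons after the start codon in capitals, were identical in TUBA1A, TUBA1B and TUBA1C, while TUBA4A has GAA where they have GAG.
TUBA1B: atgCGTGAGTGC
TUBA4A: atgCGTGAATGC
TUBB: atgAGGGAAATC
TUBB2A: atgCGCGAGATC
TUBB2B: atgCGTGAGATC
TUBB3: atgAGGGAGATC
TUBB4B shared the bases of TUBB and TUBB6 those of TUBB3.

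The last 60 coding bases of TUBA4A and the 6 beta genes, stop codon included, are given with the glutamate codons GAA and GAG in capitals.
TUBA4A: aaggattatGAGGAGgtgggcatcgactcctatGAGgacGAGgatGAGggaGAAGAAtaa
TUBB: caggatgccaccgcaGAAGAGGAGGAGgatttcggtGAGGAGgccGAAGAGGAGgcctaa
TUBB2A: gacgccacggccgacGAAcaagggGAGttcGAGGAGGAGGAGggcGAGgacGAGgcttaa
TUBB2B: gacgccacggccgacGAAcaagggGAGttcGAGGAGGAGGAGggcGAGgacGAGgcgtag
TUBB3: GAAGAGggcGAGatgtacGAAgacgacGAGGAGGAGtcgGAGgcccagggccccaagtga
TUBB4B: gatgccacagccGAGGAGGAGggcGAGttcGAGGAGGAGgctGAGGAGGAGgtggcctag
TUBB6: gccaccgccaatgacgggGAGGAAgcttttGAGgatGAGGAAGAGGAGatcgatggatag
Of the last 19 codons before the stop, 10 encode glutamate in TUBB4B, 9 in TUBB, 8 in TUBB2A, TUBB2B and TUBB3 and 7 in TUBA4A and TUBB6. The glutamate codon GAA stands before the stop in TUBA4A.

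These genes are also alike enough for short reads to be shared between them. Whole coding sequences were between 85.0% and 97.3% identical within alpha-tubulin (6 pairs), between 81.3% and 98.1% within beta-tubulin (15 pairs) and between 54.7% and 56.8% across the families (24 pairs). The closest pair was TUBB2A and TUBB2B at 98.1%, followed by TUBA1B and TUBA1C at 97.3% and TUBA1A and TUBA1B at 97.2%. How the authors' counting treated reads that fit several copies is not given in the sources used here, so the split within these pairs is uncertain. GENCODE 29 also annotates 37 alpha- and beta-tubulin pseudogenes, which were not analysed here.

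Libraries held between 34425162 and 40538274 counts, and all 6 carried 1 batch label. PGK1 checked the labels, with 2548, 2333 and 2351 FPKM (fragments per kilobase of transcript, scaled to library depth) in PGK1_OE libraries, against 102, 105 and 101 FPKM in PGK1_WT libraries. Of 5 mesenchymal markers all 5 reached 1 FPKM in every library, with summed levels of 1964 to 1996 FPKM in PGK1_OE and 987 to 1187 FPKM in PGK1_WT. Most of that sum was VIM, which averaged 1723 FPKM in PGK1_OE and 943 FPKM in PGK1_WT. SPARC and FN1 were also higher in PGK1_OE. CDH2 was lower, with 24.1 FPKM on average in PGK1_OE and 36.2 FPKM in PGK1_WT, and S100A4 overlapped between the groups. None of 4 epithelial, 3 blood and 2 endothelial markers reached 1 FPKM in every library, and EPCAM and PTPRC had 0 counts throughout. The endothelial marker PECAM1 was nevertheless higher in PGK1_OE, at 2.35, 1.87 and 1.55 FPKM in PGK1_OE libraries, against 0.473, 0.322 and 0.506 FPKM in PGK1_WT libraries (log2 fold change 1.72, edgeR adjusted p = 7.58e-06). CDH5, the other endothelial marker, had 0, 6 and 0 counts in PGK1_OE libraries, against 0, 17 and 13 in PGK1_WT libraries. The epithelial marker CDH1 had 0 counts in all PGK1_OE libraries, against 17, 28 and 16 in PGK1_WT libraries. Summed epithelial markers ranged from 0.521 to 1.07 FPKM in PGK1_OE and from 0.595 to 0.852 FPKM in PGK1_WT, and summed blood markers from 0.0422 to 0.268 FPKM in PGK1_OE and from 0.0745 to 0.0963 FPKM in PGK1_WT. The part of these markers in the results below was not tested. Of 14322 entries tested by edgeR's quasi-likelihood test, 5065 (35.4%) were higher and 5130 (35.8%) lower in PGK1_OE at an adjusted p under 0.05, 71.2% in either direction. Adjusted p-values below are from that test with Benjamini-Hochberg adjustment over all these entries. Fold changes are PGK1_OE over PGK1_WT from scaled counts, and levels are the authors' deposited FPKM, which are per length and let isotypes be set side by side. In bulk RNA a changed mix of cells cannot be told apart from a changed level per cell.

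All 10 tubulin isotype mRNAs rose in PGK1_OE cells and none fell, where 35.4% of all entries tested rose. Their log2 fold changes lay between 0.98 and 2.27 with a median of 1.67, against a median of -0.02 over all entries tested. For each of the 10, the 3 PGK1_OE libraries lay above the 3 PGK1_WT libraries, which held for 37.9% of entries tested. The smallest of the changes, in TUBA1C, was above that of 86.5% of entries tested, and the highest, in TUBB4B and TUBB3, above that of 97.9%. The order within either end is not settled: TUBB4B and TUBB3 both stood at 2.27, and TUBA1C (0.98) lay within 1 SE of TUBB2B (1.01). Together the 10 genes took 0.963%, 0.969% and 0.976% of all FPKM in PGK1_OE libraries, against 0.297%, 0.275% and 0.304% in PGK1_WT libraries.

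**Figure D1:**
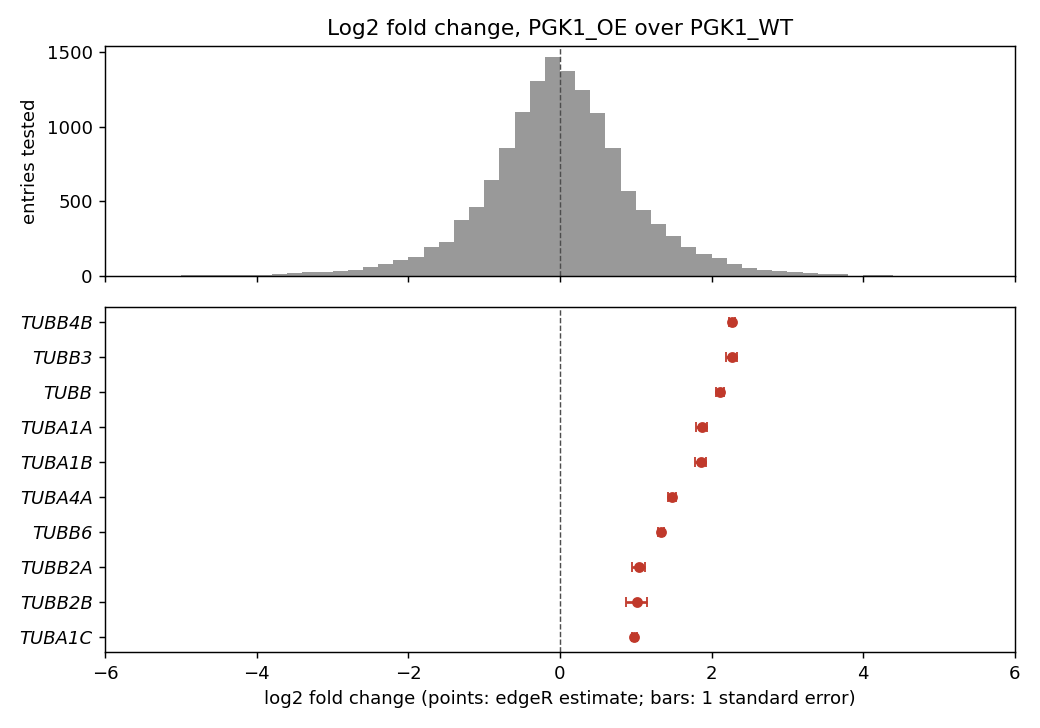
The upper panel is a histogram of log2 fold changes (PGK1_OE over PGK1_WT) of all entries tested, without 65 entries beyond 6 in either direction, and the lower panel gives each tubulin isotype as the edgeR estimate with 1 standard error. The isotypes lie between 0.98 (TUBA1C) and 2.27 (TUBB4B), all to the right of 0.

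Among the alpha genes, TUBA1B, the most abundant alpha isotype of these cells, rose 3.63-fold. It stood at 1283, 1306 and 1294 FPKM in PGK1_OE libraries, against 383, 327 and 394 FPKM in PGK1_WT libraries (log2 fold change 1.86, SE 0.07, adjusted p = 8.37e-08). The PGK1_OE libraries were nearly level, and among the PGK1_WT libraries replicate 2 was the lowest. TUBA1B lies on chromosome 12 from 49127782 to 49131397, minus strand, of GRCh38.

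TUBA1C, also widely expressed and a neighbour of TUBA1B on chromosome 12 (49188736 to 49274603, plus strand), rose less, 1.97-fold. Its levels were 410, 420 and 419 FPKM in PGK1_OE libraries, against 219, 217 and 226 FPKM in PGK1_WT libraries (log2 fold change 0.98, SE 0.04, adjusted p = 5.79e-10). Libraries were tight within each group, and the gap between groups was far larger than their spread.

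TUBA1A, the alpha isotype of developing neurons, lies between them (49184796 to 49189324, minus strand). It had 174, 148 and 154 FPKM in PGK1_OE libraries, against 47.1, 39.6 and 41.6 FPKM in PGK1_WT libraries (log2 fold change 1.87, SE 0.07, adjusted p = 2.25e-08). Its 3.66-fold rise and the rise of TUBA1C are uncertain, since TUBA1A and TUBA1C overlap at their 5′ ends on opposite strands and strand use in counting is not given.

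TUBA4A, an alpha isotype abundant in platelets, muscle and brain, lies on chromosome 2 (219249711 to 219278170, minus strand). It had 80.6, 86.7 and 83.3 FPKM in PGK1_OE libraries, against 29.4, 34.1 and 30.2 FPKM in PGK1_WT libraries (log2 fold change 1.48, SE 0.05, adjusted p = 5.21e-10). It overlaps STK16 on the opposite strand, which went the other way, with 8.12 ± 0.520 FPKM in PGK1_OE and 12.7 ± 0.781 FPKM in PGK1_WT (SD, n = 3 each). It also overlaps TUBA4B, which had at most 4 counts in a library.

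Among the beta genes, TUBB, the main beta isotype of dividing cells (chromosome 6, 30720201 to 30725426, plus strand), rose 4.32-fold. It had 1040, 1075 and 1068 FPKM in PGK1_OE libraries, against 260, 233 and 268 FPKM in PGK1_WT libraries (log2 fold change 2.11, SE 0.05, adjusted p = 2.09e-10). As for TUBA1B, replicate 2 was the lowest of the PGK1_WT libraries.

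TUBB4B, a widely expressed isotype that also builds ciliary axonemes (chromosome 9, 137241213 to 137243707, plus strand), rose 4.81-fold. It had 453, 434 and 454 FPKM in PGK1_OE libraries, against 93.6, 98.8 and 95.3 FPKM in PGK1_WT libraries (log2 fold change 2.27, SE 0.04, adjusted p = 2.80e-12). This is the smallest adjusted p among the 10. It overlaps CIMIP2A on the opposite strand, which had at most 2 counts in a library.

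TUBB6, a beta isotype of many non-neuronal cells (chromosome 18, 12307669 to 12344320, plus strand), rose 2.51-fold by counts and 2.28-fold by FPKM. It had 207, 195 and 207 FPKM in PGK1_OE libraries, against 83.7, 90.8 and 92.4 FPKM in PGK1_WT libraries (log2 fold change 1.33, SE 0.04, adjusted p = 1.23e-10). AFG3L2 overlaps it on the opposite strand and was lower in PGK1_OE, with 30.9 ± 0.212 FPKM in PGK1_OE and 45.6 ± 2.02 FPKM in PGK1_WT (SD, n = 3 each).

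TUBB3, the beta isotype used as a neuronal marker and also found in tumours (chromosome 16, 89921392 to 89938761, plus strand), rose 4.81-fold. It had 94.7, 80.2 and 87.1 FPKM in PGK1_OE libraries, against 15.7, 16.9 and 19.96 FPKM in PGK1_WT libraries (log2 fold change 2.27, SE 0.08, adjusted p = 3.00e-09). Its counts were 6513, 5866 and 5444 in PGK1_OE libraries, against 1134, 1075 and 1333 in PGK1_WT libraries. The entry AC092143.1 overlaps it on the same strand and held 0, 512 and 117 counts in PGK1_OE libraries, against 227, 0 and 0 in PGK1_WT libraries. How reads were divided between TUBB3 and that entry is not given, so the TUBB3 values are uncertain to that extent. Among 4 neuronal markers, SNAP25 alone reached 1 FPKM in every library and was also higher in PGK1_OE. It had 3.70, 4.98 and 3.78 FPKM in PGK1_OE libraries, against 1.86, 1.11 and 1.93 FPKM in PGK1_WT libraries (log2 fold change 1.27, edgeR adjusted p = 4.17e-05). SYP overlapped between the groups, with 49, 15 and 33 counts in PGK1_OE libraries, against 46, 38 and 45 in PGK1_WT libraries. ELAVL3 had 0 counts in 5 of 6 libraries and 2 counts in PGK1_WT replicate 3. RBFOX3 had 0, 7 and 3 counts in PGK1_OE libraries, against 68, 68 and 58 in PGK1_WT libraries. The summed level of the 4 ranged from 4.15 to 5.17 FPKM in PGK1_OE and from 2.59 to 3.23 FPKM in PGK1_WT. Their part in the TUBB3 difference was not tested.

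TUBB2A and TUBB2B, isotypes that are most abundant in brain, were the lowest of the 10, and both stand on the minus strand of chromosome 6, at 3153669 to 3157526 and 3224261 to 3231730. TUBB2A had 17.9, 16.6 and 17.5 FPKM in PGK1_OE libraries, against 8.04, 9.90 and 8.20 FPKM in PGK1_WT libraries (log2 fold change 1.04, SE 0.09, adjusted p = 7.06e-07). TUBB2B had 3.73, 3.68 and 3.87 FPKM in PGK1_OE libraries, against 1.89, 1.99 and 1.90 FPKM in PGK1_WT libraries (log2 fold change 1.01, SE 0.14, adjusted p = 3.38e-05). The fold changes of the pair differed by less than 1 SE of either, and the groups did not overlap for either gene. PSMG4 overlaps TUBB2B on the opposite strand and was lower in PGK1_OE, with 16.2 ± 1.90 FPKM in PGK1_OE and 25.0 ± 3.45 FPKM in PGK1_WT (SD, n = 3 each). In the plot of tubulin levels by library the lowest point is TUBB2B in PGK1_WT.

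**Figure D2:**
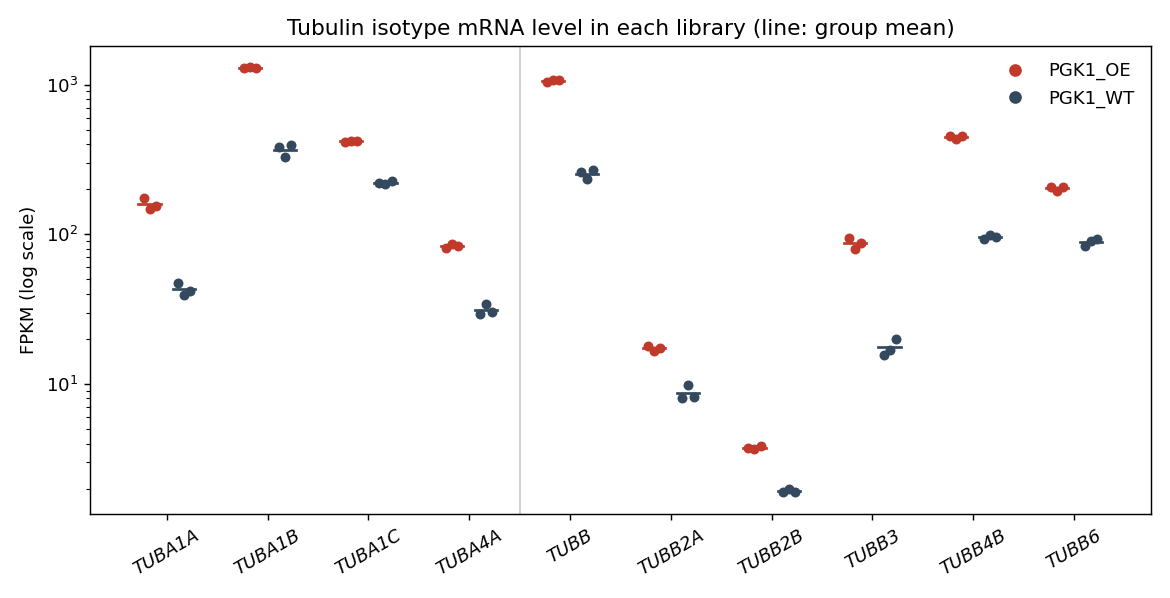
Levels of the 10 tubulin isotypes in FPKM on a log axis, with 1 point per library, PGK1_OE in red left of PGK1_WT in dark blue, and a line at the group mean; alpha genes stand left of the grey line and beta genes right of it. The PGK1_OE points lie above the PGK1_WT points for every gene, from TUBB2B (3.68 to 3.87 against 1.89 to 1.99 FPKM) to TUBA1B (1283 to 1306 against 327 to 394 FPKM).

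Ordered by level, PGK1_OE cells had TUBA1B (1294 ± 11.8 FPKM), TUBB (1061 ± 18.5), TUBB4B (447 ± 11.4), TUBA1C (417 ± 5.31), TUBB6 (203 ± 7.34), TUBA1A (159 ± 13.2), TUBB3 (87.3 ± 7.25), TUBA4A (83.5 ± 3.04), TUBB2A (17.3 ± 0.705) and TUBB2B (3.76 ± 0.0991). TUBB3 and TUBA4A overlapped in that order. PGK1_WT cells had TUBA1B (368 ± 36.0 FPKM), TUBB (253 ± 18.4), TUBA1C (221 ± 5.16), TUBB4B (95.9 ± 2.65), TUBB6 (88.9 ± 4.64), TUBA1A (42.8 ± 3.89), TUBA4A (31.2 ± 2.50), TUBB3 (17.5 ± 2.18), TUBB2A (8.71 ± 1.03) and TUBB2B (1.92 ± 0.0543). The errors are SD of 3 libraries. The places of TUBA1C and TUBB4B were exchanged between the groups. Those of TUBA4A and TUBB3 were exchanged by group means only, since the 2 genes overlapped in PGK1_OE.

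Because the isotypes rose by different amounts, the make-up of the tubulin mRNA pool was compared within each library, as percent of the summed alpha or beta FPKM. A share does not depend on scaling between libraries, and with 3 against 3 the two-sided exact permutation test cannot go below 0.1. That smallest value was reached by every isotype but TUBA4A (exact permutation p = 0.3). Reaching it means only that the groups did not overlap. By level in CPM (counts scaled to library size), not by share, 76.4% of all entries tested did not overlap in either direction. The shares of a family add up to the whole, so they are not separate results.

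Within alpha-tubulin, TUBA1B gained and TUBA1C lost share. TUBA1B made up 65.9%, 66.6% and 66.3% in PGK1_OE libraries, against 56.4%, 53.0% and 56.9% in PGK1_WT libraries, a difference of 10.8 percentage points. TUBA1C made up 21.1%, 21.4% and 21.5% in PGK1_OE libraries, against 32.3%, 35.1% and 32.7% in PGK1_WT libraries, a difference of -12.0 points. Put as a ratio, there were 3.11 ± 0.0188 units of TUBA1B FPKM per unit of TUBA1C in PGK1_OE and 1.67 ± 0.136 in PGK1_WT (SD, n = 3 each). The coding sequences of this pair are 97.3% identical, and the counting of shared reads is not given, so the split between them is uncertain. TUBA1A averaged 8.13% in PGK1_OE and 6.46% in PGK1_WT without overlap, and TUBA4A averaged 4.28% in PGK1_OE and 4.74% in PGK1_WT with overlap. TUBA1C is the longest in the authors' scaling, with 3.01 CPM (counts scaled to library size) per FPKM over the 6 libraries, against 1.76 for TUBA1B. Its level beside other isotypes rests on that length, and from raw counts its share differed by -13.9 points. CPM per FPKM was not the same in both groups. TUBA1C rose 1.97-fold by counts and 1.89-fold by FPKM, and TUBA1B 3.63-fold and 3.52-fold. The part of this in the share differences was not tested.

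Within beta-tubulin, TUBB6 lost the most share and TUBB and TUBB4B gained. TUBB6 made up 11.4%, 10.8% and 11.3% in PGK1_OE libraries, against 18.1%, 20.1% and 19.0% in PGK1_WT libraries, a difference of -7.92 points. TUBB made up 57.2%, 59.6% and 58.1% in PGK1_OE libraries, against 56.1%, 51.6% and 55.1% in PGK1_WT libraries. Its 4.02 points separate the groups only narrowly, by PGK1_OE replicate 1 and PGK1_WT replicate 1. TUBB4B made up 25.0%, 24.1% and 24.7% in PGK1_OE libraries, against 20.2%, 21.9% and 19.6% in PGK1_WT libraries. TUBB3 averaged 4.801 ± 0.386% in PGK1_OE and 3.75 ± 0.358% in PGK1_WT (SD, n = 3 each). From raw counts the differences were smaller, -5.71 points in place of -7.92 for TUBB6, 2.61 in place of 3.97 for TUBB4B and 0.54 in place of 1.05 for TUBB3. TUBB2A averaged 0.952% in PGK1_OE and 1.87% in PGK1_WT, and TUBB2B 0.207% in PGK1_OE and 0.413% in PGK1_WT, all without overlap. The ratio of TUBB2A to TUBB2B overlapped between the groups, at 4.61 ± 0.180 in PGK1_OE and 4.52 ± 0.403 in PGK1_WT (SD, n = 3 each).

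**Figure D3:**
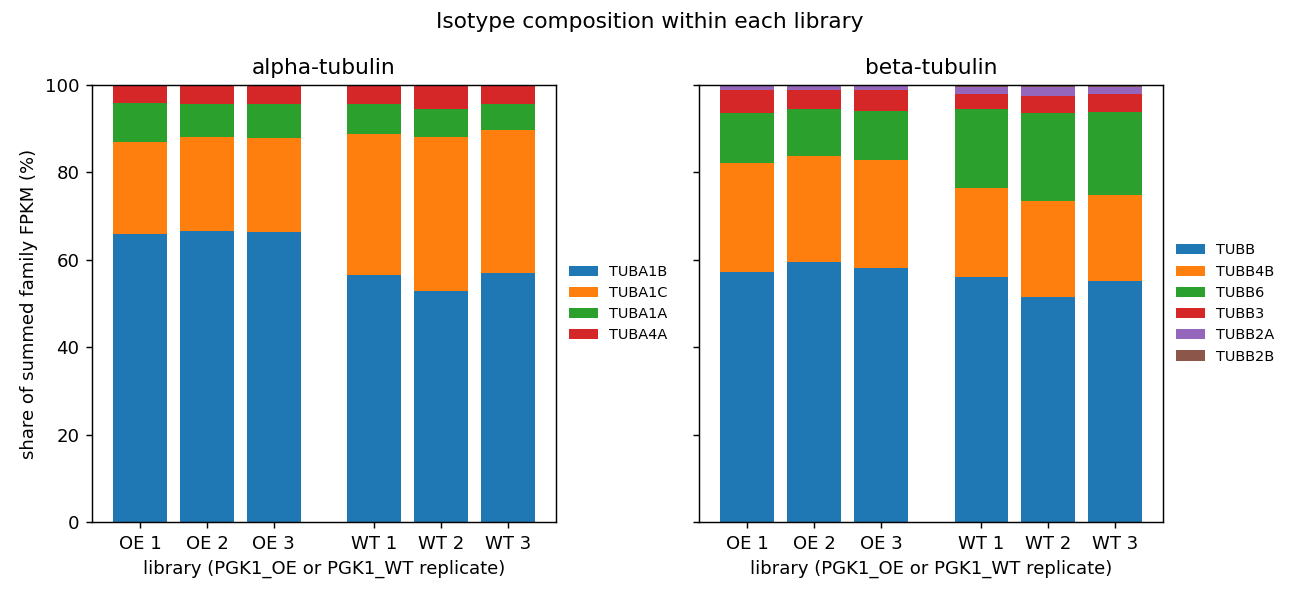
Stacked bars give each isotype's share of summed alpha (left) or beta (right) FPKM in percent, 1 bar per library, PGK1_OE libraries left of PGK1_WT libraries. TUBA1C takes 21.1% to 21.5% in PGK1_OE and 32.3% to 35.1% in PGK1_WT, and TUBB6 takes 10.8% to 11.4% in PGK1_OE and 18.1% to 20.1% in PGK1_WT.

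The beta sum rose more than the alpha sum. Summed beta FPKM were 1819 ± 16.95 in PGK1_OE and 466 ± 17.4 in PGK1_WT, a 3.90-fold difference, and summed alpha FPKM were 1953 ± 7.38 in PGK1_OE and 663 ± 40.1 in PGK1_WT, a 2.95-fold difference (SD, n = 3 each). The ratio of alpha to beta was 1.07, 1.09 and 1.06 in PGK1_OE libraries, against 1.47, 1.37 and 1.43 in PGK1_WT libraries. The PGK1_OE libraries thus held close to equal amounts by FPKM, and the groups did not overlap.

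The promoters of TUBB4B, from the high end of the fold changes, and of TUBA1C, from the low end, are shown as examples, with CCAAT and TATAA, or their reverse complements ATTGG and TTATA, in capitals, from RefSeq on GRCh38.p14 (250 bases before to 50 after the start). TUBB4B is chr9:137241037-137241336, plus strand, and for TUBA1C the window that holds a TATAA, 1 of 3 for this gene, is chr12:49264832-49265131, plus strand.
TUBB4B: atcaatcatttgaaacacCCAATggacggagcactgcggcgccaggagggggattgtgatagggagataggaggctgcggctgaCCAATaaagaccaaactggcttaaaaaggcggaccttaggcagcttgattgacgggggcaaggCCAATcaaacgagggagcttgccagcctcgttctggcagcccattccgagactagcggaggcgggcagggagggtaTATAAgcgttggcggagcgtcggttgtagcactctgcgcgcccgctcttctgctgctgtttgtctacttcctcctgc
TUBA1C: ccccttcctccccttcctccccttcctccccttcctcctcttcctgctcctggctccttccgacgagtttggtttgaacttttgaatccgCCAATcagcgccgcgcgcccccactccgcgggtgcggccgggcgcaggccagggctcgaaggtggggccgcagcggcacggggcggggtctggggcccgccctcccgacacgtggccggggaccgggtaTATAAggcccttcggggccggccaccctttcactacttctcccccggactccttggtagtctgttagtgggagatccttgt
TUBB4B held CCAAT at 232, 166 and 103 bases before the start and TATAA at 27. TUBA1C held CCAAT at 160 bases before the start and TATAA at 31. Among the other members, TUBA1A held 2 copies of CCAAT, TUBB2B held 1, and TUBA1B, TUBA4A and TUBB2A held 0. TUBB, TUBB3 and TUBB6 each held 1 copy in 1 window and 0 in another. Whether the number of copies goes with the fold changes was not tested. All 10 members were matched, with 15 windows. CCAAT on either strand stood in 9 of these 15 windows, from 7 of the 10 members, and in 34.6% of all 35116 windows of the table. Overlapping windows of TUBA1C share a CCAAT site, so the windows are not independent. There were 3 or more copies, as in TUBB4B, in 3.26% of all windows. TATAA stood in 5 of the 15 windows and in 20.4% of all windows. CCAAT and TATAA can share a base but do not in the windows shown, and these matches describe letters only.

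The genes whose pattern over the 6 libraries was nearest to TUBA1B, by distance in centred log2 CPM among 9435 genes, were PLK1 (a mitotic kinase, distance 0.0719), CALR (an endoplasmic reticulum chaperone, 0.0864) and PTMA (prothymosin alpha, 0.101). Their log2 fold changes were 1.86, 1.83 and 1.83. Nearest to TUBB were DHX9 (an RNA helicase, 0.0478), SRRT (a partner of the cap-binding complex, 0.0707) and CTDSPL (a phosphatase, 0.0845), with log2 fold changes of 2.08, 2.13 and 2.14. Genes chosen as near by this distance have like fold changes by that choice, so the match is no separate result. Shared regulation was not tested.

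The remaining tubulin genes did not move as a block. Of 12 on that list 10 were tested, of which 5 rose and 2 fell, where 35.4% of all entries tested rose and 35.8% fell. Their median log2 fold change of 0.29 turned to -0.06 with no low-count filter, -0.07 with DESeq2 and -0.02 with unfiltered FPKM, where all 12 entered. TUBA3C, an alpha-tubulin gene best known from testis, had 79.5, 81.7 and 81.9 FPKM in PGK1_OE libraries, against 7.56, 4.54 and 7.60 FPKM in PGK1_WT libraries (log2 fold change 3.67, SE 0.21, adjusted p = 5.12e-05). It stood near TUBA4A in PGK1_OE cells. Its near copy TUBA3D held between 12 and 17 counts in every library, and TUBA3E had 21, 41 and 30 counts in PGK1_OE libraries, against 96, 87 and 108 in PGK1_WT libraries. TUBG1, the gamma-tubulin that nucleates microtubules, had 45.5, 49.8 and 47.9 FPKM in PGK1_OE libraries, against 16.4, 14.1 and 15.2 FPKM in PGK1_WT libraries (log2 fold change 1.70). TUBE1, the epsilon-tubulin of centrioles, fell by 3.09 on the log2 scale (SE 0.07, adjusted p = 2.90e-11). It had 4.70, 4.87 and 4.07 FPKM in PGK1_OE libraries, against 39.9, 42.1 and 38.4 FPKM in PGK1_WT libraries.

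Of 11 genes of the gamma-tubulin complex, which anchors and nucleates microtubules, 7 rose (63.6%) and 1 fell (9.09%), against 35.4% and 35.8% of all entries tested (median 0.31). Besides TUBG1, the ring components TUBGCP5 (log2 fold change 0.94), TUBGCP4 (0.61) and TUBGCP3 (0.56) rose. Of 15 genes of tubulin folding and dimer assembly 5 rose and 5 fell, 33.3% each way, which is near the 35.4% and 35.8% of all entries tested (median -0.04). The cofactors TBCB (1.35) and TBCD (1.44), which handle alpha- and beta-tubulin, rose. PFDN2, a subunit of the prefoldin chaperone, fell by 1.38 and the cofactor E-like gene TBCEL by 0.95 on the log2 scale. Only 3 of these genes fell without PGK1_OE replicate 3 or without PGK1_WT replicate 3.

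Of 6 genes of tubulin mRNA autoregulation 1 rose (16.7%) and 2 fell (33.3%), the falls near the 35.8% of all entries tested (median -0.03). TTC5, which recognises the nascent tubulin chain, had 4.08, 4.53 and 5.01 FPKM in PGK1_OE libraries, against 7.91, 7.10 and 8.16 FPKM in PGK1_WT libraries (log2 fold change -0.67, SE 0.07, adjusted p = 3.26e-06). SCAPER, its adaptor to the deadenylase, had 2.56, 2.81 and 2.47 FPKM in PGK1_OE libraries, against 3.51, 4.12 and 4.03 FPKM in PGK1_WT libraries (log2 fold change -0.50, SE 0.09, adjusted p = 2.72e-04). For both the PGK1_OE libraries lay below the PGK1_WT libraries, by counts scaled to library size as well, which held for 38.5% of all entries tested. CNOT1, the deadenylase scaffold, rose by 0.11 (adjusted p = 0.0331), a call lost without PGK1_OE replicate 3 (adjusted p = 0.0784), without PGK1_WT replicate 2 (0.0519) and when scaled by library totals alone (0.141). CNOT2 had a log2 fold change of -0.09 (adjusted p = 0.184), and passed without PGK1_WT replicate 2 (adjusted p = 0.0148) and with library totals (0.0402).

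Of 22 enzymes that modify tubulin, most of them on the tails shown above, 19 were tested, of which 9 rose (47.4%) and 3 fell (15.8%), against 35.4% and 35.8% of all entries tested (median 0.20). TTL, the ligase that returns the terminal tyrosine, rose by 0.75, and the polyglutamylases TTLL5 (0.71) and TTLL7 (0.96) rose as well. AGTPBP1, a deglutamylase, fell by 1.04 on the log2 scale, with 5.75 FPKM on average in PGK1_OE and 12.2 FPKM in PGK1_WT. The other falls on this list were TTLL1 (-1.17) and TTLL6 (-0.96). VASH1 (1.15), VASH2 (2.93) and MATCAP1 (0.51) were among the other rises. Of these further genes, all but MATCAP1 averaged under 1 FPKM in both groups. Of 21 lattice and plus-end proteins 20 were tested, of which 9 rose and 6 fell, where 35.4% and 35.8% of all entries did (median 0.08). The end-binding protein gene MAPRE1 (0.63), MAP7D1 (0.71) and MAP1A (2.51, at 0.973 FPKM on average in PGK1_OE and 0.175 FPKM in PGK1_WT) rose, and the plus-end linker CLIP1 fell by 0.64. Of 15 destabilising and severing proteins 12 were tested, of which 5 rose (41.7%) and 3 fell (25.0%), again beside 35.4% and 35.8% of all entries (median 0.23). STMN1, stathmin, which binds free tubulin dimers, had 241, 244 and 246 FPKM in PGK1_OE libraries, against 78.9, 63.7 and 81.2 FPKM in PGK1_WT libraries (log2 fold change 1.75, SE 0.10, adjusted p = 7.99e-06). The depolymerising kinesin KIF2C (1.05) and the katanin-like KATNAL1 (2.08) rose, and the katanin subunit KATNA1 fell by 0.96. TUBA3D, TUBG1, TUBE1, TUBGCP4, PFDN2, TBCB, TBCD, TBCEL, CNOT1, TTLL5, MATCAP1 and MAP7D1 overlap another entry of the count table, so their values are uncertain. The plot of pathway lists sets these changes beside the 10 isotypes.

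**Figure D4:**
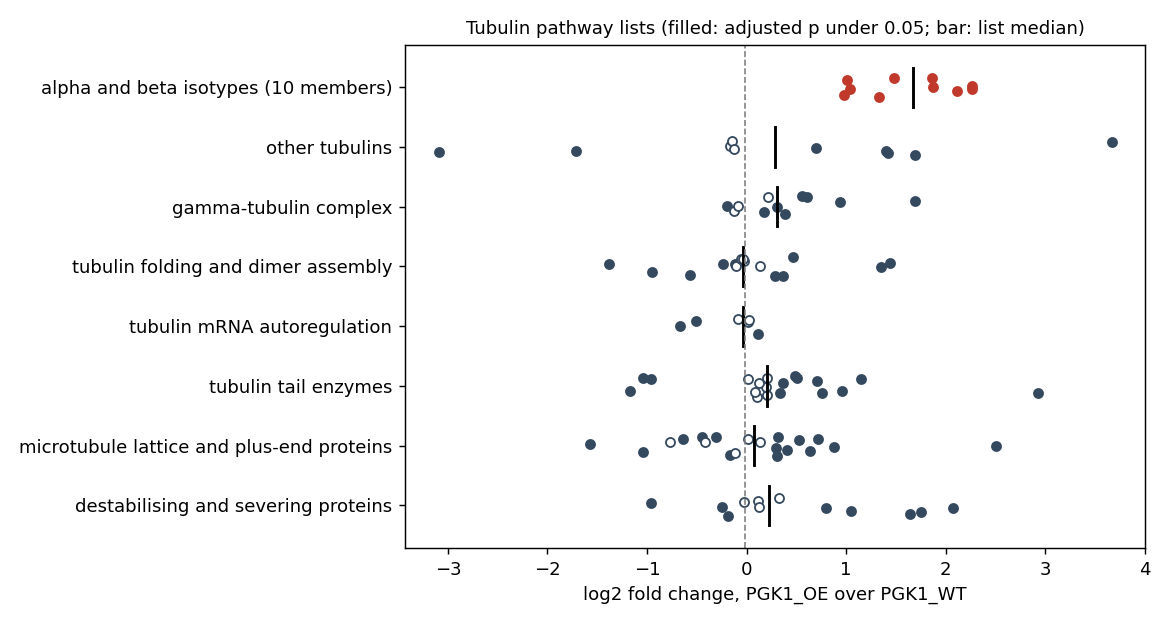
Log2 fold changes (PGK1_OE over PGK1_WT) of the 10 isotypes and of the tested genes of 7 tubulin pathway lists, filled where the adjusted p was under 0.05, with a bar at each list's median and a dashed line at the median of all entries tested (-0.02). The isotypes lie between 0.98 and 2.27, while each list spans both sides of 0, from -3.09 (TUBE1) to 3.67 (TUBA3C) among the other tubulins.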

How the data were processed

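The submitters' processing notes name fastp, HISAT and build hg38. No source used here gives the counter, its strand setting or the annotation. The authors deposited raw counts per gene and, in a second table, FPKM normalised by them for length and depth (column sums 384333 to 390840). Table columns were matched to samples through the sample descriptions.

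Counts were fitted in R 4.3.3 with edgeR 4.0.16 (filterByExpr by group, TMM scaling, robust quasi-likelihood, group only, two-sided, all 6 libraries). Changes were called at an adjusted p under 0.05. The SE was taken as |log2 fold change| over the square root of F. Log2 CPM used a prior count of 2, and compared genes had a mean of at least 10 CPM. Shares were tested by an exact permutation test with scipy 1.17.1. No library was a repeat of another of its group (chi-square over degrees of freedom between 7.93 and 15.2 for pairs within a group).

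The members and lists were chosen with earlier results of these data known. Named genes are the 10 members, per list the 4 genes of smallest adjusted p, the 3 nearest genes of TUBA1B and of TUBB, and PGK1. TUBA3D, TTLL1, TTLL6, VASH1, VASH2, MATCAP1 and the single markers given were named after their values were seen. Coordinates, coding sequences and overlaps come from GENCODE 29 (GRCh38, as hg38), and promoters from RefSeq. The last coding bases of 3 alpha genes are not reported here. The edgeR step was tested on simulated counts. Alternatives were RLE factors, library totals, other filters, DESeq2 1.42.0, voom in limma 3.58.1, limma on log2(FPKM + 1) or log2(FPKM + 0.1), a replicate block, an adjusted p under 0.01, and leaving out each library. For shares they were raw counts, leaving out TUBB3 and, chosen after seeing the data, counting TUBA3C as alpha.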

Additional observations from a re-analysis of the deposited data

How the results depend on the processing

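All 10 isotypes rose in each of 17 alternatives, with log2 fold changes between 0.70 (TUBB2B on log2(FPKM + 1), a scale that understates low genes) and 2.37 (TUBB3 without PGK1_WT replicate 3). Of all entries tested, 25.3% to 38.4% rose in these alternatives. Calls over all entries ranged from 8817 to 10354 (10195 as reported). The alpha to beta log2 ratio in PGK1_OE minus that in PGK1_WT was -0.40 as reported, -0.53 from raw counts, -0.36 with TUBA3C counted, and -0.43 to -0.38 without 1 library. No autoregulation gene rose (0 in place of 1) with library totals, with any of the 3 FPKM fits and at an adjusted p under 0.01, and 0 to 1 rose without 1 library. Of the folding genes 3 in place of 5 fell at an adjusted p under 0.01, and 3 to 5 without 1 library. Of the tail enzymes 1 in place of 3 fell in both FPKM fits that required 1 FPKM, where 14 of the list were tested. The median of the other tubulins, 0.29 as reported, was -0.06 with no low-count filter, -0.07 with DESeq2 and -0.02 with FPKM unfiltered, where all 12 were tested. From raw counts the share differences were -13.9 points for TUBA1C, 0.54 for TUBB3, 2.61 for TUBB4B and -5.71 for TUBB6. Deviations of same-numbered libraries from their group means correlated at -0.01, -0.01 and 0.10, the last being the highest of all pairs across the groups. PGK1_OE replicate 1 correlated best with PGK1_WT replicate 2 (0.05), and PGK1_OE replicate 2 with PGK1_WT replicate 1 (0.07). With 3 libraries per group these values cannot decide whether replicate numbers mark pairs. A replicate block in the edgeR fit called 9943 entries. Depth limits TUBB2B most, with 142 counts in its lowest library.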
